A study of Homo sapiens with 18 samples.

Results

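Formaldehyde is removed from human cells mainly by oxidation to formate, and 9 genes of this route were followed: ADH5, ESD, ALDH2, ADH1A, ADH1B, ADH1C, ADH4, ADH6 and ADH7. They were chosen by name, as every probe set of the array whose platform gene symbol is exactly one of these, which gave 21 probe sets for 9 of the 19775 genes that have a probe set of their own. A probe set is the group of short array probes read as one value. The RNA came from A549, an established human lung adenocarcinoma line, grown in transwell inserts at the air-liquid interface. The cells were held in the chambers for 72 h in humidified air. Each of 9 experiments gave 1 array of cells from a reference chamber, which never held formaldehyde (0 ppm), and 1 of cells from an exposure chamber. The exposure chamber held 0, 0.1 or 0.5 ppm formaldehyde, with 3 experiments at each level, so that 18 arrays fell into 6 groups of 3. In the labels the raw data of the 0 ppm experiments are numbered 7 to 9 and those of all others 1 to 6. In comparisons of 0.1 or 0.5 with 0 ppm, concentration therefore cannot be told apart from whatever this numbering follows. All cells are thus of 1 tumour line, and the 0 ppm experiments measure what the chambers themselves do. Levels are given as log2 of the deposited signal, a scale on which 1 is a doubling or a halving.

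Most cells clear formaldehyde with the help of glutathione, which traps it without an enzyme. ADH5, known as well as S-nitrosoglutathione reductase, is the dehydrogenase that oxidises the trapped form, and it hands the thioester it makes to ESD, an esterase that cuts off formate so that the glutathione can be used again. ALDH2, the mitochondrial aldehyde dehydrogenase best known for acetaldehyde after drinking, oxidises free formaldehyde. The class I enzymes (ADH1A, ADH1B, ADH1C), ADH4, ADH6 and ADH7 act mostly on ethanol, retinol and longer alcohols and are included as the relatives of ADH5.

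Of the 21 probe sets, 18 had a mean log2 signal above that of the median probe set of the array (4.78), and the other 3 were 240808_at of ESD, 209614_at of ADH1B and the only probe set of ADH7. All 5 epithelial markers were above this median, with means from 6.02 (KRT19) to 13.8 (KRT18). Of 6 alveolar type II markers, SFTPD (4.58) and LAMP3 (4.47) were below it, SFTPC, the gene that defines the type, was at 5.29, and ABCA3 was at 8.50. All 4 hepatocyte markers were above it, up to SERPINA1 at 11.3, as were 2 of 4 fibroblast, 1 of 3 endothelial and 1 of 3 blood cell markers. On 2 arrays of the reference chamber the 5′ actin control, a probe set toward the 5′ end of the actin transcript, was low: 5.90 in the 0.1 ppm experiment, replicate 1, and 6.85 in the 0 ppm experiment, replicate 3, while the remaining 16 arrays read between 7.75 and 9.70. The 5′ GAPDH control ran the other way, with its 2 highest log2 signals of the 18 on these arrays, 14.67 and 14.61, close to 14.82 and 14.77 at its 3′ end.

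The genes of formaldehyde oxidation gave few values past the test: between 2 groups of arrays none passed, whether chambers or concentrations were compared, and the class I enzyme ADH1A came closest between concentrations among the brightest probe sets, with differences of -1.40 at 0.1 ppm and -1.13 at 0.5 ppm from 0 ppm. Across the 5 comparisons between 2 groups, 0 of 21 member probe sets passed the threshold used in the study, unadjusted p under 0.05, in limma. The share of all 54675 probe sets that passed was 4.84% between the chambers at 0 ppm, 4.00% at 0.1 ppm and 3.92% at 0.5 ppm. It was 4.47% between 0.1 and 0 ppm and 4.56% between 0.5 and 0 ppm in the exposure chamber. The lowest unadjusted p of a member in limma was 0.115, 0.0756, 0.196, 0.0632 and 0.0937 in the same order. Of the tests of whether the chamber difference depended on concentration, the one of 0.1 against 0 ppm called 1 of 21 members, a dim ESD probe set (240808_at), beside 3.21% of all probe sets. The one of 0.5 against 0 ppm called 0, beside 3.69%. The F test over the 6 groups called 0 as well, beside 4.11%. After Benjamini-Hochberg adjustment over all probe sets in limma none passed in any of these, and the lowest adjusted p of a member was 0.880. The medians of the member differences were 0.01, -0.32 and -0.0041 between the chambers at 0, 0.1 and 0.5 ppm, beside -0.07, -0.07 and -0.04 over all probe sets. At 0.1 ppm 18 of 21 members were below 0. The same number was below 0 for 0.1 against 0 ppm in the exposure chamber (median -0.41, beside -0.03 over all probe sets), a comparison that shares the exposed arrays. The share of all probe sets below 0 was not counted. Both comparisons hold the exposed array of the 0.1 ppm experiment, replicate 2. The comparison of chambers also holds its reference array, low in many members too, and that of replicate 1, which had a low 5′ actin signal. The part of these arrays was not tested. Ordered by group mean, 0 of 105 neighbouring pairs of groups were apart by more than the larger SD of the pair.

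**Figure D1:**
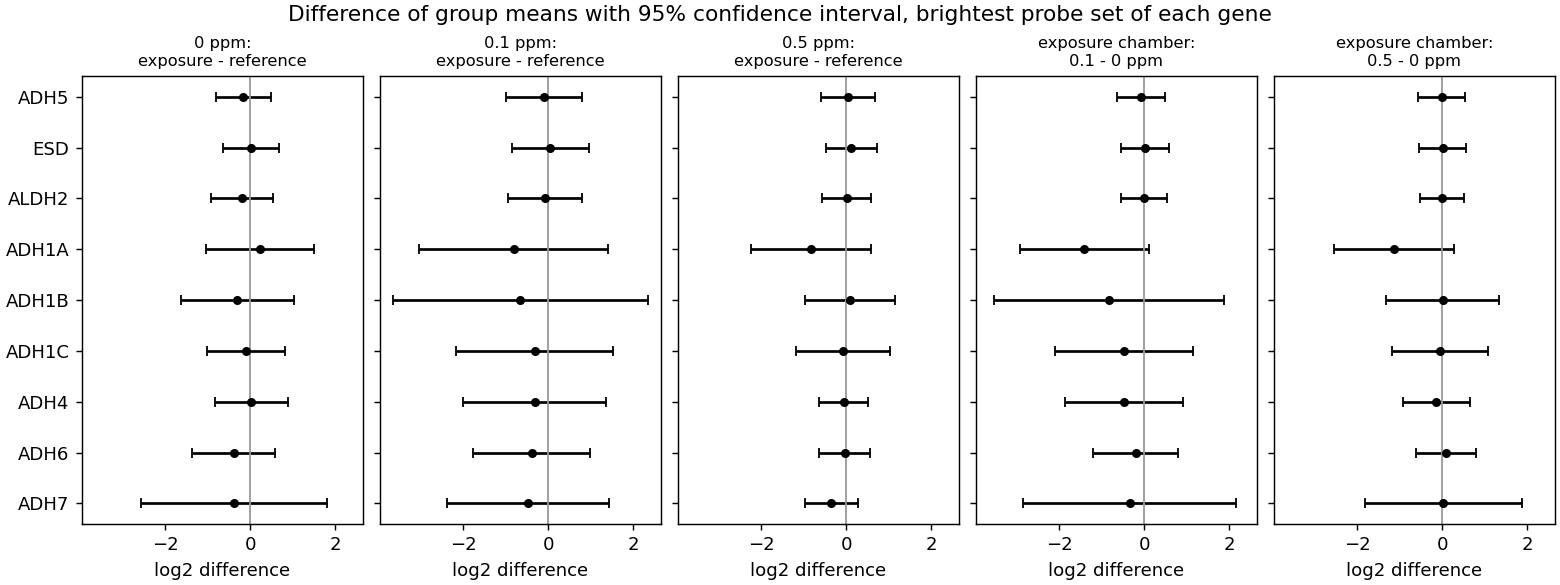
Log2 difference of the group means (horizontal axes) for the brightest probe set of each gene (vertical axis) in the 5 comparisons between 2 groups of 3 arrays, with bars for the 95% confidence interval. All intervals span 0. Their width differs between genes and comparisons, and an interval that spans 0 does not show that a gene was unchanged. ADH1A in the exposure chamber reaches -1.40 at 0.1 ppm and -1.13 at 0.5 ppm.

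ADH5, the enzyme that takes formaldehyde from its glutathione adduct, was read most brightly by 208847_s_at. In the 0 ppm experiments its log2 signals were 12.82, 12.99 and 13.28 in the reference chamber and 12.79, 12.91 and 12.90 in the exposure chamber. In the 0.1 ppm experiments they were 13.31, 12.67 and 12.73 in the reference chamber and 12.81, 12.55 and 13.01 in the exposure chamber. In the 0.5 ppm experiments they were 12.62, 12.79 and 13.05 in the reference chamber and 12.73, 12.71 and 13.12 in the exposure chamber. The chambers overlapped at every level, and the 2 highest of the 18 values lay on both arrays of low 5′ actin signal. Between 0.1 and 0 ppm in the exposure chamber the mean differed by -0.07 (SE 0.23, 95% confidence interval -0.64 to 0.49), and between 0.5 and 0 ppm by -0.01 (SE 0.22, interval -0.57 to 0.54). A change within these intervals is not excluded with 3 arrays a group. The group means had the order 0 ppm reference, 0.1 ppm reference, 0 ppm exposure, 0.5 ppm exposure, 0.5 ppm reference and 0.1 ppm exposure, from 13.03 down to 12.79, a span of 0.24 that is as large as the SD within groups (0.24).

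A further probe set of ADH5, 208848_at, ran differently. It was lowest on both arrays of low 5′ actin signal, at 8.72 and 8.97, against 9.46 to 10.37 on the others, so on these 2 arrays the ADH5 probe sets lay at opposite ends of their ranges. Over the 18 arrays Pearson's r between both ADH5 probe sets was -0.53, a description over arrays that share experiments.

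ESD, which frees formate from S-formylglutathione, was read most brightly by 215096_s_at. Its log2 signals at 0 ppm were 13.43, 13.61 and 13.93 in the reference chamber and 13.62, 13.63 and 13.73 in the exposure chamber. At 0.1 ppm they were 14.00, 13.26 and 13.64 in the reference chamber and 13.75, 13.44 and 13.86 in the exposure chamber. At 0.5 ppm they were 13.48, 13.47 and 13.71 in the reference chamber and 13.58, 13.51 and 13.93 in the exposure chamber. The groups overlapped throughout, though at 0.5 ppm the exposure chamber was above the reference chamber in 3 of 3 experiments, with means between 13.56 and 13.69, a span of 0.13 that is smaller than the SD within groups (0.23). The exposure chamber differed from the reference chamber by 0.05 at 0.1 ppm (SE 0.37, interval -0.85 to 0.95) and by 0.12 at 0.5 ppm (SE 0.24, interval -0.48 to 0.72). In the same 0.5 ppm experiments 209009_at was also higher in 3 of 3, by 0.12, 0.01 and 0.17, while 228162_at was lower in 3 of 3, by 0.07, 0.04 and 0.10. The gene's other probe sets above the median, 209009_at, 228162_at and 215095_at, did not pass a test between groups either.

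The dimmest ESD probe set, 240808_at, gave the 1 call among the members. At 0 ppm its log2 signals were 1.38, 1.29 and 1.10 in the reference chamber and 2.07, 4.41 and 1.48 in the exposure chamber. With 0.1 ppm they were 2.49, 2.69 and 1.96 in the reference chamber and 0.90, 0.69 and 2.63 in the exposure chamber. With 0.5 ppm they were 1.97, 1.03 and 1.65 in the reference chamber and 0.56, 2.91 and 1.52 in the exposure chamber. All were below the median of their array, and one value, 4.41, stood far above the rest. The exposure chamber was higher in 3 of 3 experiments at 0 ppm, and lower in 2 of 3 at 0.1 ppm. The chamber difference at 0.1 ppm minus that at 0 ppm was -2.37 (SE 1.03, unadjusted p = 0.0446, adjusted p = 1.00 over all probe sets in limma). With the experiment as a block the unadjusted p in limma was 0.0646. Without the array that held 4.41 the difference was -1.49, and with 32 added to each signal it was -0.33, and neither passed. The 2 bright ESD probe sets did not share it: 215096_s_at gave 0.04 (SE 0.40) and 209009_at 0.02 (SE 0.37).

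ALDH2, the mitochondrial enzyme, has 1 probe set, 201425_at. Its log2 signals at 0 ppm were 12.83, 13.06 and 13.54 in the reference chamber and 12.89, 12.90 and 13.07 in the exposure chamber. The 0.1 ppm experiments gave 13.41, 12.84 and 12.82 in the reference chamber and 13.12, 12.84 and 12.89 in the exposure chamber. The 0.5 ppm experiments gave 12.80, 13.12 and 12.91 in the reference chamber and 12.79, 13.03 and 13.05 in the exposure chamber. As for ADH5, the 2 highest values lay on both arrays of low 5′ actin signal and the groups overlapped. In the exposure chamber the mean at 0.1 ppm differed from that at 0 ppm by -0.0037 (SE 0.21, interval -0.54 to 0.53), and that at 0.5 ppm by 0.0017 (SE 0.21, interval -0.52 to 0.52).

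**Figure D2:**
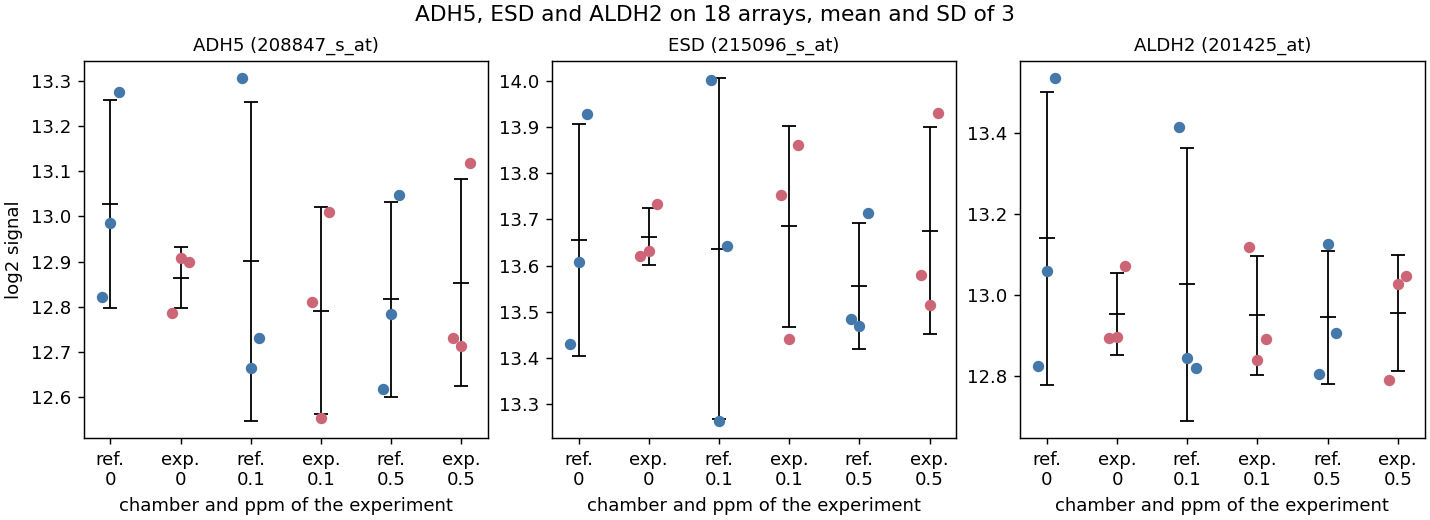
Log2 signal (vertical axes, each with its own range) of the brightest probe set of ADH5, ESD and ALDH2 by chamber and by ppm in the exposure chamber of the experiment (horizontal axes). Blue points are reference-chamber and red points exposure-chamber arrays, and the bar gives the mean and SD of 3. The 6 groups overlap for each gene, and the highest ADH5, ESD and ALDH2 values lie in the reference chamber.

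The class I alcohol dehydrogenases oxidise ethanol and retinol. Among them ADH1A, read by 207820_at at a level close to the median probe set, had the largest shift between concentrations. In the exposure chamber its log2 signals were 5.25, 5.80 and 6.32 at 0 ppm, 3.68, 3.88 and 5.60 at 0.1 ppm, and 4.89, 3.60 and 5.48 at 0.5 ppm. In the reference chamber of the same experiments they were 4.67, 6.19 and 5.82, then 6.05, 3.36 and 6.17, then 5.71, 4.89 and 5.86. The exposed arrays were mostly below the 0 ppm arrays of the exposure chamber, but each pair of groups overlapped. The difference to 0 ppm was -1.40 at 0.1 ppm (SE 0.61, interval -2.92 to 0.11, unadjusted p = 0.0632, adjusted p = 1.00 in limma) and -1.13 at 0.5 ppm (SE 0.57, interval -2.55 to 0.28, unadjusted p = 0.0970, adjusted p = 1.00 in limma). Neither passed the threshold, while both did in limma with a trend on signal and among the probe sets above the median alone. After quantile normalization, with 32 added to each signal or with all 18 arrays in one fit, neither passed. Within the 0.5 ppm experiments the exposure chamber was lower in 3 of 3, by 0.82, 1.29 and 0.38 on the log2 scale. With the experiment as a block ADH1A was the 1 member that passed the unadjusted threshold in limma there, beside 5.32% of all probe sets, while without it the difference was -0.83 (SE 0.57). At 0.1 ppm the exposure chamber was lower in 2 of 3 experiments. In replicate 2 of that level the reference array, without formaldehyde, held the lowest of the 18 values, 3.36, below 3.88 in the exposure chamber. ADH1A was also among the probe sets that passed a test between experiments, given below. In the differences to 0 ppm, concentration and the numbering of the experiments cannot be told apart, as said at the start.

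ADH1C was read by 206262_at. Its log2 signals at 0 ppm were 12.69, 13.15 and 13.26 in the reference chamber and 12.32, 13.29 and 13.15 in the exposure chamber. In the 0.1 ppm experiments the values were 13.44, 11.63 and 13.21 in the reference chamber and 12.75, 11.14 and 13.43 in the exposure chamber. In the 0.5 ppm experiments the values were 13.00, 12.44 and 13.39 in the reference chamber and 12.94, 12.17 and 13.49 in the exposure chamber. The lowest values, 11.63 and 11.14, came from the 2 chambers of 1 experiment, the 0.1 ppm experiment, replicate 2. The exposure chamber differed from the reference chamber by -0.11 at 0 ppm (SE 0.37), -0.32 at 0.1 ppm (SE 0.77) and -0.07 at 0.5 ppm (SE 0.45), less than the spread between replicates.

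ADH1B, in its brightest probe set 209613_s_at, did the same. At 0 ppm the log2 signals were 9.21, 10.02 and 10.24 in the reference chamber and 8.66, 9.51 and 10.39 in the exposure chamber. At 0.1 ppm they were 9.84, 7.43 and 10.76 in the reference chamber and 9.62, 6.37 and 10.07 in the exposure chamber. At 0.5 ppm they were 9.81, 8.83 and 9.67 in the reference chamber and 9.45, 9.02 and 10.12 in the exposure chamber. Again both chambers of replicate 2 at 0.1 ppm were the lowest of all. The chamber difference was -0.31 (SE 0.54), -0.66 (SE 1.25) and 0.09 (SE 0.43) at 0, 0.1 and 0.5 ppm. The suffix of 209613_s_at marks probes that can match several transcripts. Since the class I genes are near copies of each other, how much of its signal came from ADH1B alone is uncertain, and its r with ADH1C over the 18 arrays was 0.93. The other ADH1B probe sets did not all follow it: 209612_s_at had an r of 0.88 with ADH1C, 209614_at 0.46 and 243544_at -0.50.

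ADH4, best known as a liver enzyme, was read most brightly by 223781_x_at. At 0 ppm its log2 signals were 10.35, 10.81 and 10.80 in the reference chamber and 10.19, 10.72 and 11.13 in the exposure chamber. With 0.1 ppm they were 10.92, 9.44 and 11.22 in the reference chamber and 10.74, 9.09 and 10.79 in the exposure chamber. With 0.5 ppm they were 10.57, 10.53 and 10.72 in the reference chamber and 10.34, 10.52 and 10.77 in the exposure chamber. The same experiment gave its lowest pair, and the chamber difference was 0.03 (SE 0.35), -0.32 (SE 0.70) and -0.06 (SE 0.24) at 0, 0.1 and 0.5 ppm. All 4 ADH4 probe sets have suffixes that mark probes matching several transcripts.

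ADH6 was read most brightly by 214261_s_at. At 0 ppm the log2 signals were 11.40, 11.69 and 12.47 in the reference chamber and 11.31, 11.18 and 11.89 in the exposure chamber. The 0.1 ppm experiments gave 12.50, 10.81 and 11.65 in the reference chamber and 11.83, 10.61 and 11.33 in the exposure chamber. The 0.5 ppm experiments gave 11.44, 11.73 and 11.53 in the reference chamber and 11.30, 11.72 and 11.60 in the exposure chamber. Its lowest pair was that experiment too, and in 8 of 9 experiments the exposure chamber was below the reference chamber, 3 of these at 0 ppm. The same 8 of 9 held for ADH6 207544_s_at, ESD 228162_at and ADH1B 209612_s_at, and the share over all probe sets was not counted. The chamber difference of 214261_s_at was -0.39 at 0 ppm (SE 0.40), -0.39 at 0.1 ppm (SE 0.57) and -0.03 at 0.5 ppm (SE 0.24), and none of these passed.

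ADH7, a retinol-oxidising enzyme of the upper digestive tract and airway, was read by 210505_at below the median of each array. At 0 ppm its log2 signals were 3.08, 1.99 and 4.08 in the reference chamber and 3.20, 1.00 and 3.78 in the exposure chamber. In the 0.1 ppm experiments the values were 3.35, 1.95 and 3.08 in the reference chamber and 1.00, 2.17 and 3.80 in the exposure chamber. In the 0.5 ppm experiments the values were 2.90, 2.90 and 3.35 in the reference chamber and 2.82, 2.73 and 2.52 in the exposure chamber. The groups overlapped at 0 and 0.1 ppm, and at 0.5 ppm the exposure chamber was below the reference chamber in 3 of 3 experiments. The difference at 0.5 ppm was -0.36 (SE 0.25, interval -0.98 to 0.27), at a signal where replicates of 1 group could spread over more than 2 log2 units.

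More member probe sets passed a test between experiments than any test between groups. In this test, which was chosen after the values had been seen and is an F test in limma of the experiments within each concentration over the group means, 10 of 21 member probe sets passed the unadjusted threshold (47.6%), beside 8.23% of all probe sets. They were ADH1A, ADH1C, the ADH1B probe sets 209613_s_at and 209612_s_at, all 4 of ADH4 and both of ADH6. These are not independent readings. Over the 18 arrays ADH1B 209613_s_at had an r of 0.93 to 0.97 with the 4 ADH4 probe sets, whose suffixes mark probes matching several transcripts. Whether shared probes had a part was not tested. The lowest unadjusted p was 0.000131, for 209613_s_at, with an adjusted p of 0.402 in limma, so none passed after adjustment. No probe set of ADH5, ESD, ALDH2 or ADH7 passed in this setting. With 32 added to each signal ALDH2, ESD 209009_at and ESD 215096_s_at passed too (13 of 21, beside 14.0% of all probe sets), and after quantile normalization ADH7 did (11 of 21, beside 8.27%). No ADH5 probe set passed in either. Among probe sets above the median signal alone, where 10 of 18 members passed, the share was 16.3%. Without the 2 arrays of the 0.1 ppm experiment, replicate 2, 3 of 21 passed, beside 6.55%: both of these ADH1B probe sets and 231675_s_at of ADH4.

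That experiment was lowest in a large part of the members. For 10 of 21 probe sets its 2 arrays were the 2 lowest of all 18, a count also made after the values had been seen. Over all probe sets the share was 2.50%, and among those above the median signal 4.27%. The 2 arrays were the 2 highest in 2.83% of all probe sets and in 4.79% of those above the median. In the other 8 experiments the shares of all probe sets were 0.424% to 1.35% for the lowest and 0.262% to 1.47% for the highest. The experiment thus stood apart over the whole array, in both directions. The 10 probe sets with both arrays lowest were ADH1C, both ADH6, ADH1B 209613_s_at and 209612_s_at, all 4 ADH4 and 209009_at of ESD. As above, these readings are not independent of each other. For 243544_at of ADH1B the 2 arrays were instead the 2 highest. In the other 8 experiments, 1 member in all had both arrays at the low end. The mean of the 2 arrays was below that of the other 16 by 2.80 on the log2 scale for ADH1B 209613_s_at, which is 6.95-fold. For ADH1A it was 3.37-fold lower, for ADH1C 3.07-fold, for ADH4 223781_x_at 2.70-fold and for ADH6 214261_s_at 1.93-fold. The core oxidation enzymes had smaller gaps, ADH5 208847_s_at 1.23-fold, ESD 215096_s_at 1.26-fold and ALDH2 1.13-fold lower, while the median over all probe sets was 0.01 on the log2 scale. Both chambers were low, one of them without formaldehyde. The 5′ actin signals of these arrays, 9.70 and 9.18, were among the 3 highest of the 18, and its part in the low values was not tested. In bulk RNA, fewer cells that express a gene and less RNA per cell cannot be told apart.

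**Figure D3:**
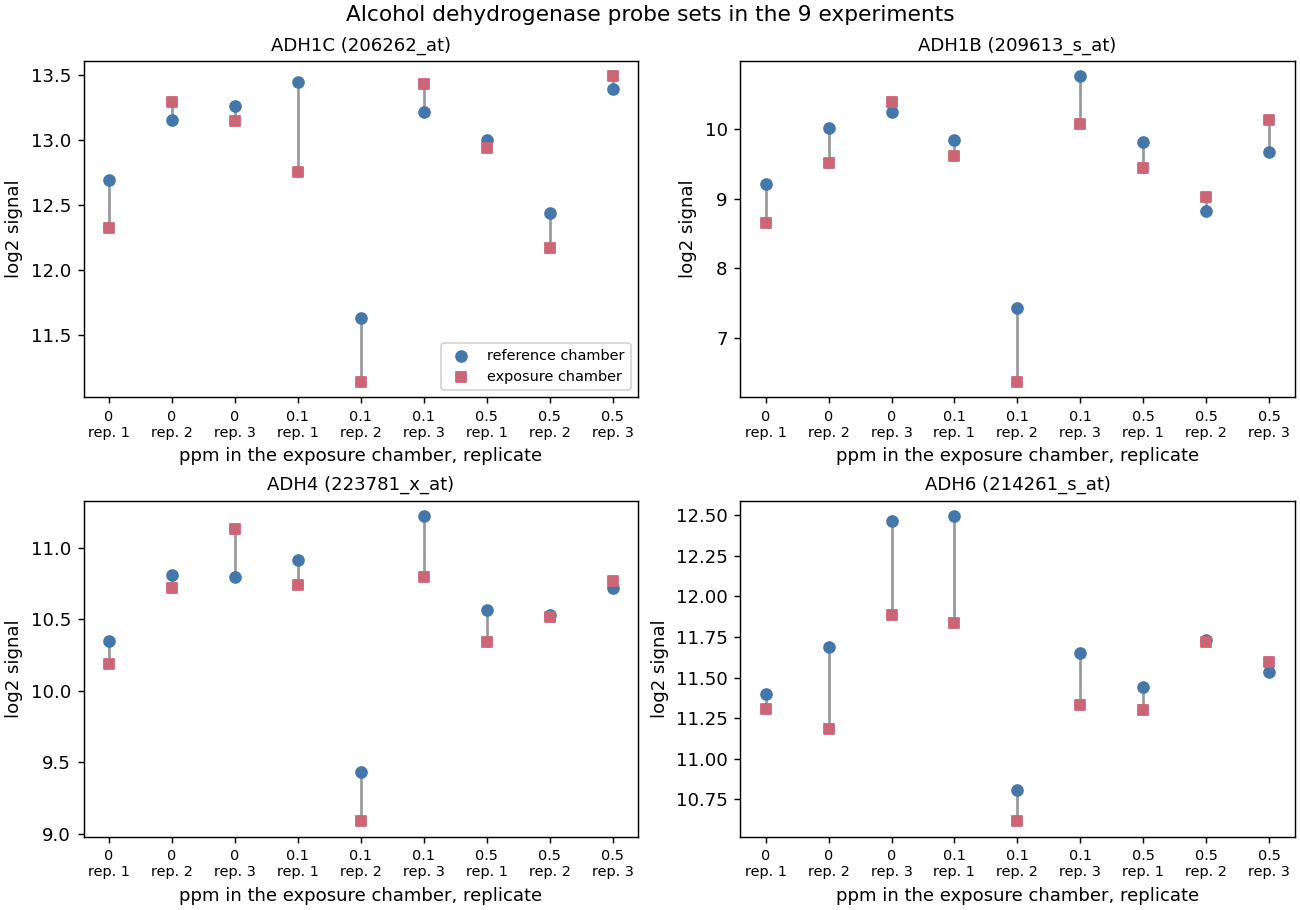
Log2 signal (vertical axes, each with its own range) of the brightest probe sets of ADH1C, ADH1B, ADH4 and ADH6 in the 9 experiments, ordered by ppm in the exposure chamber and replicate. A line joins the reference chamber (blue circle) and the exposure chamber (red square) of an experiment. Both chambers of the 0.1 ppm experiment, replicate 2, are the lowest in all 4 panels, at 11.63 and 11.14 for ADH1C.

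In part of the member probe sets the chambers of an experiment followed each other. Over the 9 experiments the exposure chamber's log2 signal of ADH1C had a Pearson's r of 0.93 with that of the reference chamber (exact permutation p = 0.00185, adjusted over 21 probe sets 0.0129) and a Spearman's rho of 0.70 (exact permutation p = 0.0433, adjusted 0.101). Without the 2 experiments farthest from the median r was 0.63, so part of the relation rests on these. ADH6 214261_s_at had an r of 0.88 (exact permutation p = 0.00110, adjusted 0.0129) with a rho of 0.78 (exact permutation p = 0.0172, adjusted 0.0898), and r was 0.73 without 2 experiments. In ALDH2 r was 0.80 (exact permutation p = 0.00823, adjusted 0.0216) and rho 0.88 (exact permutation p = 0.00308, adjusted 0.0646), with 0.60 left without 2. ADH5 208847_s_at had 0.42 (exact permutation p = 0.257, adjusted 0.337) and a rho of 0.50 (exact permutation p = 0.178, adjusted 0.249). Its r was 0.70 without the 2 farthest experiments, those with an array of low 5′ actin signal. Within concentrations r was 0.93 for ADH1C, 0.96 for ADH6, 0.84 for ALDH2 and 0.44 for ADH5. The median r was 0.68 over the 21 member probe sets and 0.18 over all probe sets, or 0.33 over those above the median signal. ESD 240808_at had an r of -0.61, and ADH5 208848_at, ESD 215095_at, ADH1B 243544_at and ADH1B 209614_at lay between -0.16 and 0.02. No rho passed 0.05 after adjustment. Without the 0.1 ppm experiment, replicate 2, r fell from 0.83 to 0.22 for ADH4 231678_s_at and from 0.82 to 0.36 for ADH6 207544_s_at. It was then 0.80 for ADH1C and 0.79 for ADH6 214261_s_at.

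The alcohol dehydrogenase genes lie side by side. In the RefSeq annotation of GRCh38.p14 the 7 protein-coding genes from ADH5 to ADH7 on chromosome 4 are ADH5, ADH4, ADH6, ADH1A, ADH1B, ADH1C and ADH7, with no other protein-coding gene between them. ESD is on chromosome 13 and ALDH2 on chromosome 12. RefSeq promoters were at hand for 8 of the 9 members. Those of the 3 class I genes, which were low together in 1 experiment, are shown beside that of ADH5, whose gap there was 1.23-fold, as the 250 bases before the start of each gene in the direction of transcription. Capitals mark the E-box CACGTG and the GC box GGGCGG, the latter also as CCGCCC on the opposite strand.
ADH1A, chr4:99290986-99291235, minus strand: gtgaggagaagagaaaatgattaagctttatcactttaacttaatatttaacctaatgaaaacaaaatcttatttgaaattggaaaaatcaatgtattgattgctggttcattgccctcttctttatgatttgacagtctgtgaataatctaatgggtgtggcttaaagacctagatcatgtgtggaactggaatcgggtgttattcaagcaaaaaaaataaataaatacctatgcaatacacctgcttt
ADH1B, chr4:99321402-99321651, minus strand: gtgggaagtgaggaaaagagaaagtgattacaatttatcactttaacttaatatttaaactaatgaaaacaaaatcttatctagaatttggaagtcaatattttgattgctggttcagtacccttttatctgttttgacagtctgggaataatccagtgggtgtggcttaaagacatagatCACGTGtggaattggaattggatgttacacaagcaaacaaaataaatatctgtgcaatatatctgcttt
ADH1C, chr4:99352747-99352996, minus strand: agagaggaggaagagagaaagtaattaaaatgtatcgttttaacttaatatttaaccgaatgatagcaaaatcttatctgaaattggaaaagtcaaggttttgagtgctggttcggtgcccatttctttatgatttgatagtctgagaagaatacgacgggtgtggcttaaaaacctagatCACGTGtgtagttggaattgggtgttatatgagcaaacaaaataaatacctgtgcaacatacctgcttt
ADH5, chr4:99088789-99089038, minus strand: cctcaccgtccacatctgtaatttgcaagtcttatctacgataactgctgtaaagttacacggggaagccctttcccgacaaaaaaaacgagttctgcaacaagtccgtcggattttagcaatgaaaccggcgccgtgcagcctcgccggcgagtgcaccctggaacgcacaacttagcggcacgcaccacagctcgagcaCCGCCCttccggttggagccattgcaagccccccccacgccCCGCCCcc
The class I promoters are closely alike, with 210 of 250 bases identical between ADH1A and ADH1B, 205 between ADH1A and ADH1C and 204 between ADH1B and ADH1C in a global alignment. Between ADH5 and each of them it was 113 to 122. ADH4 and ADH6, which were low in the same experiment, shared 131 to 139 bases with the class I promoters. Whether promoter likeness had a part in the low values was not tested. ADH1B and ADH1C hold 1 E-box each, whose first base is 69 bases before the start, and ADH1A holds none. The E-box is in 6.34% of the 35116 promoters of this length. The ADH5 promoter holds 2 GC boxes, as does that of ESD, and the class I promoters, ADH4, ADH6 and ADH7 hold none, where 42.6% of all promoters have at least 1. CpG dinucleotides numbered 21 in ADH5 and 20 in ESD, but 1 in ADH1A, 1 in ADH1B and 6 in ADH1C, against a median of 11. No promoter of a member held the antioxidant response element core TGACNNNGC, which 10.9% of all promoters hold on either strand. These are matches of letters and not shown to be sites in use.

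The brightest probe sets of ADH5, ESD, ALDH2 and ADH1C were lower on arrays with a higher 5′ actin signal, whose part in the results above was not tested. Over the 18 arrays ADH5 208847_s_at had a Pearson's r of -0.85 with 5′ actin and a Spearman's rho of -0.78 (permutation p = 1e-05, the smallest that 100000 resamples can give, and 0.00021; adjusted over 21 probe sets 7e-05 and 0.000924). For ESD 215096_s_at r was -0.86 and rho -0.81 (permutation p = 1e-05 and 0.00013; adjusted 7e-05 and 0.000924). For ALDH2 they were -0.78 and -0.60 (permutation p = 0.00049 and 0.00943, adjusted 0.00172 and 0.0152), and for ADH1C -0.65 and -0.77 (permutation p = 0.00497 and 0.00036, adjusted 0.0116 and 0.00126). The permutations take the 18 arrays as independent, although the chambers of an experiment share it. Without both arrays of low 5′ actin signal, which lie farthest from the median, r was -0.70 for ADH5, -0.81 for ESD, -0.45 for ALDH2 and -0.73 for ADH1C. Within the 6 groups r was -0.86, -0.92, -0.78 and -0.67. Values of r under -0.5 were found in 13 of 21 members, in 16.4% of all probe sets and in 27.5% of those above the median signal. With both arrays left out the count was 14 of 21, beside 7.64% and 12.1%. The other ADH5 probe set, 208848_at, had an r of 0.60 over 18 arrays and -0.13 without these 2.

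**Figure D4:**
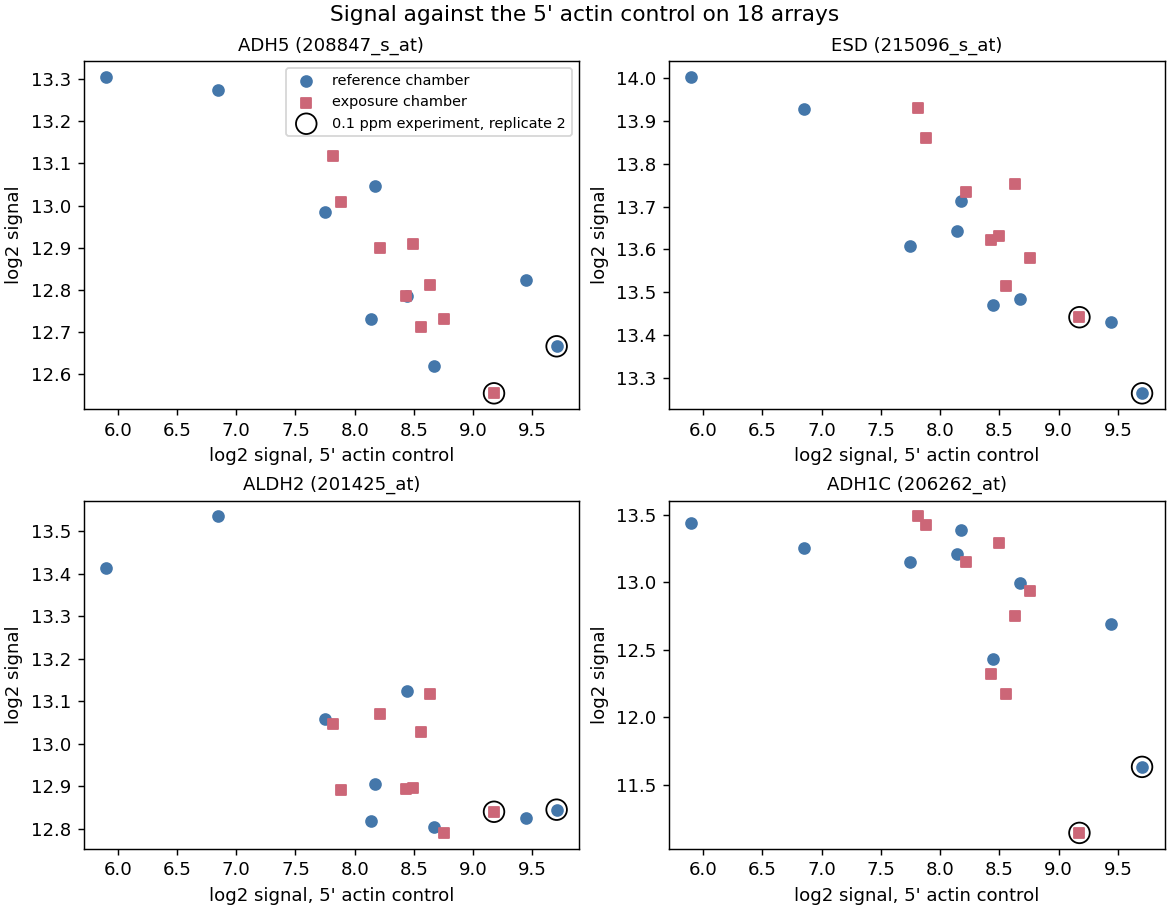
Log2 signal of the brightest probe set of ADH5, ESD, ALDH2 and ADH1C (vertical axes, each with its own range) against the log2 signal of the 5′ actin control (horizontal axes) on the 18 arrays. Blue circles are reference-chamber and red squares exposure-chamber arrays, and black rings mark the 2 arrays of the 0.1 ppm experiment, replicate 2. Signals fall from left to right in each panel, with r of -0.85, -0.86, -0.78 and -0.65, and the ringed ADH1C arrays lie below the others.

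The genes whose signals ran most like these, by Pearson's r over the 18 arrays among probe sets above the median signal, were C19orf12 (0.98), TP53I3 (0.98) and SUCLG1 (0.98) for ADH5. For ESD they were NSA2 (0.95), ATP5PO (0.94) and BTBD1 (0.94). For ALDH2 they were GPX2 (0.96), UBA1 (0.96) and PAAF1 (0.96). Without both arrays of low 5′ actin signal these r were 0.87 to 0.96. For ADH1C, looked up after its values had been seen, they were DPY19L2 (0.97), GSTA1 (0.96) and DAPL1 (0.96), and in GSTA1, a glutathione transferase, the experiment of replicate 2 at 0.1 ppm gave 11.14 and 10.73 in the reference and exposure chamber around a mean of 12.54 over all arrays. These r are descriptions over arrays that share experiments.

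The neighbouring reactions were followed in 4 lists of 9 genes each, with the brightest probe set of each gene. Of the formate and one-carbon enzymes, which carry formate onto folate, 8 of 9 were measured and 0 passed between groups. Glutathione supply, the enzymes and transporters that keep the thiol available to ADH5, had 8 of 9 measured and 0 that passed in any test, between experiments included. Its medians for the exposure chamber minus the reference chamber were 0.12, 0.17 and 0.06 at 0, 0.1 and 0.5 ppm, and those of the one-carbon enzymes -0.05, 0.21 and 0.08. Over all probe sets they were -0.07, -0.07 and -0.04. Of 9 other aldehyde dehydrogenases, 1 passed, and the medians were -0.19, -0.25 and 0.0037. ALDH1A2, which makes retinoic acid, was lower in the exposure chamber at 0 ppm, with a difference of -1.78 (SE 0.58, unadjusted p = 0.0222, adjusted p = 0.880 in limma). It was higher at 0.5 than at 0 ppm in that chamber, by 1.92 (SE 0.50, unadjusted p = 0.00994, adjusted p = 0.858 in limma), and these comparisons share the exposure-chamber arrays at 0 ppm. Its mean log2 signal, 3.15, was below that of the median probe set. The retinol and retinal reductases and dehydrogenases had 8 of 9 measured, with medians of 0.06, -0.22 and -0.13. DHRS9, 1 of them, passed the F test over the 6 groups without adjustment (adjusted p = 1.00 in limma). Between experiments ALDH1L1, ALDH1A3, RDH12 and RDH16 passed, with unadjusted p of 0.0432, 0.0322, 0.00139 and 0.000324 in limma, beside 8.23% of all probe sets and 16.3% of those above the median signal tested alone, and none of them did after adjustment.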

How the data were processed

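RNA of 18 A549 samples was amplified from the 3′ end, labelled with biotin and hybridised to Affymetrix human arrays by the authors. Per the labels they computed MAS5 intensity values, 1 per probe set, deposited on a linear scale on which every array has a mean of 500 after 2% of the probe sets was trimmed at each end. Present calls and array images were not used here. Groups came from the labels. Log2 intensity was compared in limma 3.58.1 (R 4.3.3), each comparison on its own arrays over all 54675 probe sets as in the study's methods, with an unadjusted p under 0.05 as its threshold and Benjamini-Hochberg adjusted p beside it. With 3 arrays against 3, a permutation test cannot go below 0.10. The number of arrays limits the precision, and no read depth applies.

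Gene symbols came from the platform annotation, which gives 1 symbol to 41097 probe sets, several to 1801 and none to 11777. No probe set named a member beside another gene. The members and lists were chosen with earlier results of these data known. By the rule for named genes every member is named, all 18 values are given for its brightest probe set and any other that passed a test between groups, list genes are named where they passed, and 3 most similar genes are given for ADH5, ESD and ALDH2. Both chambers of an experiment carry the same number in the names of their raw data in the labels and were cultivated at the same time, so they were taken as pairs. Their deviations from the group means correlated with r of -0.02 to 0.12 over all probe sets. For replicates 1 and 3 at 0.1 ppm and replicate 2 at 0 ppm r was higher with another number than with their own. Among probe sets above the median signal r was 0.01 to 0.05 in these experiments and 0.31 to 0.49 in the others. The pairing therefore rests on the labels. Alternatives were quantile normalization, 32 added to each signal, a filter on signal, a trend in limma, 1 fit of all arrays, the experiment as a block and each array left out. The fits were tested on simulated data. Promoters came from RefSeq (GRCh38.p14) and were aligned with Biopython 1.88. At low intensity the log2 values spread widely. Over the 18 arrays the range was 3.86 for ESD 240808_at and 4.59 for ADH1B 209614_at, against 0.74 for ESD 215096_s_at. The 3′ amplification leaves 5′ probe sets dependent on how far the copying ran.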

Additional observations from a re-analysis of the deposited data

Results flagged for a closer look

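The chamber difference of ESD 240808_at differed between the 0.1 and 0 ppm experiments by -2.37 on the log2 scale, the 1 member that passed that test without adjustment. ADH4 231675_s_at was lower in the exposure chamber in 3 of 3 experiments at 0.1 ppm (mean -0.37) and higher in 3 of 3 at 0.5 ppm (mean 0.44). The gap of 0.81 between these means was not tested. The other 3 ADH4 probe sets did not show it: at 0.5 ppm their chamber differences were -0.06 (223781_x_at), 0.08 (231678_s_at) and -0.0041 (231703_s_at), with both signs among the experiments. The groups hold 3 arrays each, too few for a search for single outlying arrays within a group.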

How the results depend on the processing

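In the tests between groups the counts of member probe sets past the unadjusted threshold moved by 1 or 2 probe sets, and no difference that was called turned its direction under the alternatives run. Between the chambers at 0 ppm the count of 0 became 1 with all 18 arrays in one fit (ADH1B 243544_at) and 0 to 2 with an array left out. A count of 2 came without replicate 1 of the reference chamber (that probe set and ADH5 208848_at), where the share of all probe sets rose from 4.84% to 9.11%, and 1 without replicate 3 of the exposure chamber (ESD 240808_at). At 0.1 ppm it became 1 after quantile normalization and 1 without both arrays of low 5′ actin signal (ADH1B 209614_at each time), and 0 to 1 with an array left out, among them replicate 1 of the reference chamber (the same probe set) and replicate 3 of the exposure chamber (ESD 240808_at). At 0.5 ppm it became 1 (ADH1A) with the replicate block, that is with the experiment as a pair, beside 5.32% of all probe sets. For 0.1 against 0 ppm it became 1 (ADH1A) with the filter on signal, with a trend, with the replicate block and without replicate 3 at 0.1 ppm, and the range with an array left out was 0 to 1. For 0.5 against 0 ppm it became 2 with the filter (ADH1A and ADH1B 243544_at), 1 with a trend (ADH1A), and 0 to 1 with an array left out, where leaving out replicate 3 (ADH1A) or 2 (ADH1B 243544_at) at 0.5 ppm gave 1. In these comparisons across concentrations the replicate numbers only name the samples (r of -0.03 to 0.04).

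For the chamber difference of 0.1 against 0 ppm the count of 1 became 0 with 32 added to each signal, with the filter, with a trend, with the replicate block, without both arrays of low 5′ actin signal and without the 0.1 ppm experiment, replicate 2. With an array left out it was 0 to 1. The array behind each count of 0 was replicate 2 or 3 of the reference chamber or replicate 2 of the exposure chamber at 0 ppm, or replicate 1 or 2 of either chamber at 0.1 ppm. Without replicate 1 of the reference chamber at 0 ppm the ESD call was lost as well, and ADH1B 243544_at passed in its place. For 0.5 against 0 ppm the count became 1 (ADH1B 243544_at) with a trend and 0 to 1 with an array left out, 1 without replicate 1 of the reference chamber at 0 ppm or replicate 2 of the exposure chamber at 0.5 ppm. Between experiments the count of 10 ranged from 3 to 11 with an experiment left out and was 3 without the 0.1 ppm experiment, replicate 2. It was 13 with 32 added to each signal, where 14.0% of all probe sets passed against 8.23%, 11 after quantile normalization (8.27%) and 10 with a trend (12.5%). The replicate block changed no other count. Leaving out low-actin arrays and the tests between experiments were chosen after seeing the data. The cause of these changes was not tested. At dim probe sets such as ESD 240808_at and ADH7 the signal over background limits what can be seen.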
